A study of Mus musculus with 8 samples.

Results

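Granulocyte-macrophage progenitors (GMP) of wild-type mice were described from the 4 control arrays of a series of 8. Members were chosen by their label, Control GMP, and the probes by a detection p under 0.01 on all 4 arrays. The cells were sorted as lineage-low, c-Kit+, Sca-1- cells with high CD34 and high CD16/32 from WT female mice of strain C57BL/6. Total RNA was hybridised in 1 colour to Illumina MouseRef-8 v2.0 BeadArrays. The labels name no treatment, transgene or age, and the 4 DKO arrays of the series enter no result given here. Neither do the labels say that the 4 samples came from separate mice, so their spread may be technical.

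GMP are committed progenitors of the bone marrow that give rise to neutrophils, other granulocytes and monocytes. They are known for making the serine proteases and peroxidase of the primary (azurophil) granules, which are produced early, at the progenitor and promyelocyte stages. Secondary and tertiary granule proteins are made later, as neutrophils mature. PU.1, the C/EBP factors and RUNX1 drive this program, and GFI1 and IRF8 are known to favour the granulocyte and the monocyte fate.

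Of the 4 gene products that define this program, myeloperoxidase (Mpo) makes hypochlorous acid, and Elane, Prtn3 and Ctsg encode the granule serine proteases neutrophil elastase, proteinase 3 and cathepsin G. Their RefSeq promoter windows, 250 bases before to 50 after the annotated start in assembly GRCm38.p6, are shown because all 4 genes lay among the brightest of the arrays. Capitals mark matches, on either strand, to GAGGAA (a PU.1 core), GAGGAAGT (a longer form that contains it, chosen after the windows were seen), TTGCNNAA (C/EBP half-sites) or TGTGGT (a RUNX core, ACCACA on the other strand). The Mpo window is chr11:87793534-87793833 on the + strand, that of Elane chr10:79886062-79886361 (+), that of Prtn3 chr10:79879417-79879716 (+) and that of Ctsg chr14:56102525-56102824 (-).
Mpo: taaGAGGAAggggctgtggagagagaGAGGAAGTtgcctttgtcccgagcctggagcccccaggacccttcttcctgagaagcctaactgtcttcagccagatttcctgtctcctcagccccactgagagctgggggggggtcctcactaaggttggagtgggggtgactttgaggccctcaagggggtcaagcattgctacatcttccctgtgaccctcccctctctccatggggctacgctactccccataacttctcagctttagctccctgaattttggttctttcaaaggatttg
Elane: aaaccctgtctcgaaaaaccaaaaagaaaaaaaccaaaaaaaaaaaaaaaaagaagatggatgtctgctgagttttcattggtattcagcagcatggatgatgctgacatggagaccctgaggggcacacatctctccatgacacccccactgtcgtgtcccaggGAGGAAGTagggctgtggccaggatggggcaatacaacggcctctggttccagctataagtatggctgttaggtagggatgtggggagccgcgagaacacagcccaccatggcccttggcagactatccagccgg
Prtn3: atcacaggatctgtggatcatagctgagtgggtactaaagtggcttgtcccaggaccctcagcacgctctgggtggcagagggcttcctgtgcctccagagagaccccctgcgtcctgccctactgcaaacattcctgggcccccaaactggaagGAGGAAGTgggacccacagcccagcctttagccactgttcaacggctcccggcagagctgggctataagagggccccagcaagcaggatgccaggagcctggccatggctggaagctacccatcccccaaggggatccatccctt
Ctsg: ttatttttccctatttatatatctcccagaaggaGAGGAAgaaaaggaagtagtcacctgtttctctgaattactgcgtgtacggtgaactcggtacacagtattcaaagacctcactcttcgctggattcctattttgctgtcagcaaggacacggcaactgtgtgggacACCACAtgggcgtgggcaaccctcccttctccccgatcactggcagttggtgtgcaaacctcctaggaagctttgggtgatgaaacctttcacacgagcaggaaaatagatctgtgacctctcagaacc

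GAGGAA was found in all 4 windows and in 28.3% of the 32851 windows of the whole table. The longer GAGGAAGT was found in the Mpo, Elane and Prtn3 windows and in 3.20% of all windows. It was chosen after these windows were seen, so its presence in them was known beforehand and shows no excess. TGTGGT matched the Ctsg window, against 16.8% of all windows, and TTGCNNAA matched 0 of the 4, against 10.8%. Among the 29 windows of detected members of the primary granule list, TTGCNNAA was found in 9 (31.0%). In the same windows TGTGGT was found in 9 (31.0%) and GAGGAA in 10 (34.5%), and no excess was tested. A match describes these letters in this window and says nothing of a factor's binding. The CpG observed-over-expected ratio was 0.087 for Mpo, 0.15 for Prtn3, 0.31 for Elane and 0.46 for Ctsg, against a median of 0.38 over all windows and 0.80 over those of the bright genes. Ctsg lay above the median of all windows and the other 3 below it.

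The platform annotation gave 1 symbol for 23978 of the 25697 probes, which stand for 16593 genes. Of the probes, 9053 (35.2%) were detected on all 4 arrays, among them 493 without a symbol. At least 1 probe was detected on all 4 arrays for 6551 genes (39.5%), every probe had a detection p of 0.05 or more on all 4 arrays for 7853 genes (47.3%), and 2189 genes (13.2%) lay between and are called partly detected. Single arrays detected 9558 to 10096 probes, at a mean raw intensity of 605 to 736. Intensities were normalized on the 4 control arrays alone, and signals are given on the normalized log2 scale, with the mean and SD over the 4 arrays. The number of arrays, 4, limits the precision of every value.

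Each gene was represented by its brightest detected probe. The detected genes were ranked by mean signal and cut into a bright band, the top 10% (655 genes, 3.95% of all), a moderate band, the next 40% (2620 genes), and a dim band, the lower 50% (3276 genes). Bright genes had mean signals of 11.86 to 14.82, or raw intensities of 3816 to 29032. Moderate genes lay between 8.96 and 11.85 and dim genes between 5.62 and 8.96, while genes not detected lay between 4.32 and 5.05. The order is one of probe brightness and not of transcript number. Among the 1555 genes with at least 2 detected probes, the brightest and the dimmest probe of the same gene differed by a median of 1.36 on the log2 scale (2.57-fold), and for 305 of them (19.6%) by more than 3.

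The 8 widest gaps between probes of a gene belonged to Actb, Tkt, Srsf2, Tpi1, Arhgdib, Rps19, M6pr and Atp6ap2, at 6.47 to 8.29. Actb, which encodes beta-actin, had 1 probe at 14.22 and another at 5.93. In Tpi1, a glycolytic enzyme, the brightest probe read 13.96 and the dimmest 6.44. Bands and percentiles below therefore place probes, and the same gene could fall in another band with another probe.

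**Figure D1:**
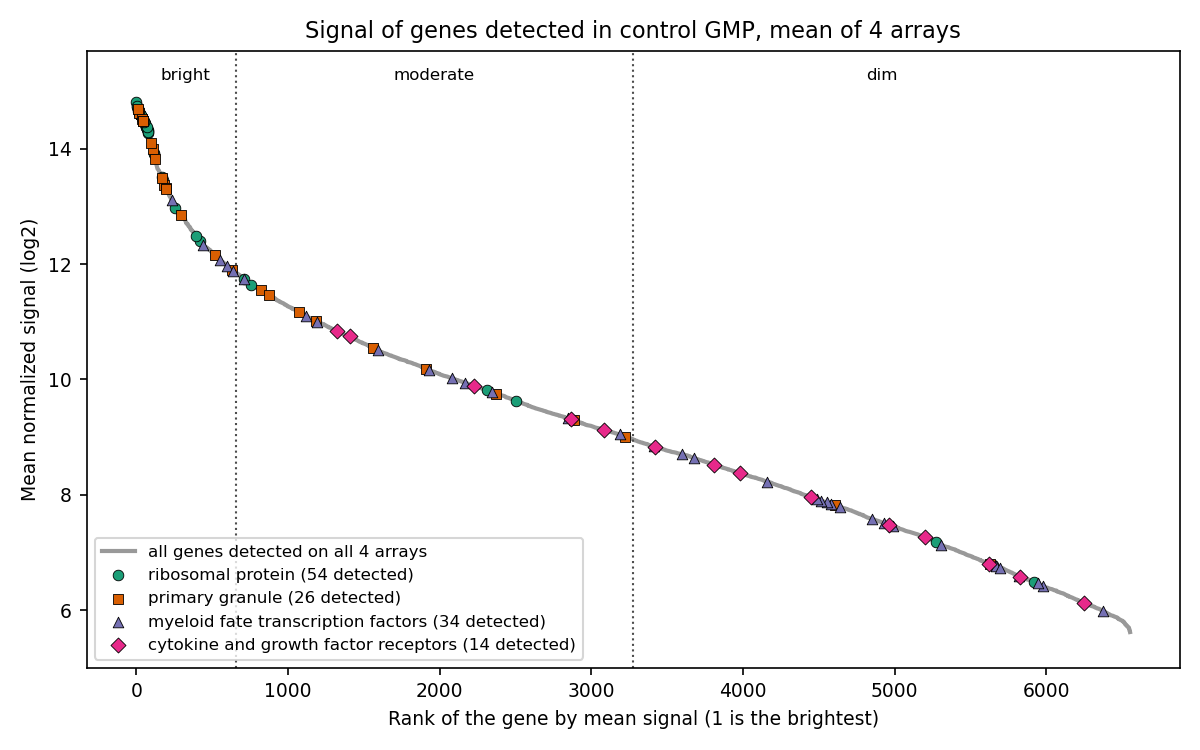
Mean normalized log2 signal over the 4 control arrays (vertical axis) against the rank of each of the 6551 detected genes (horizontal axis, 1 is the brightest), with 4 gene lists marked and dotted lines at the edges of the bright, moderate and dim bands. Ribosomal protein genes and the leading primary granule genes stood at the bright end, and all 14 detected cytokine and growth factor receptor genes lay in the moderate and dim bands.

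Many of the brightest genes encoded ribosomal proteins, and some encoded primary granule proteins. Rps4x, a protein of the small ribosomal subunit, ranked first at 14.82 ± 0.08 (SD, n = 4), followed by Gpx1, a glutathione peroxidase that removes hydrogen peroxide, at 14.78 ± 0.04. Of the 50 brightest genes, 27 belonged to the ribosomal protein list and 5 to the primary granule list, Plac8 among the latter. Others among the first 30 were the elongation factor gene Eef1g, the cytokine gene Mif, the tubulin gene Tuba1b, Atp5b and Atpif1 of the mitochondrial ATP synthase and its inhibitor, the ADP/ATP carrier gene Slc25a5, and Gapdh. The histone genes H2ac12, H2ac24 and H2ac15 and the gene named Ubb-ps were also among them, but near-identical copies and pseudogenes can share a probe, so which copy gave the signal is uncertain. The first 50 genes spanned 0.35 in mean log2 signal, and 76 genes had a mean raw intensity over 20000 against a highest value on any array of 31567.9. Order within this group is therefore of little weight.

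Of the genes of the sort gate, those with a probe were all detected and all moderate. Fcgr3, which encodes CD16, read 11.22, 11.40, 11.57 and 11.23 on controls 1 to 4. Fcgr2b, which encodes CD32, read 10.01, 10.14, 10.24 and 10.02, and Cd34 read 9.60, 9.43, 9.40 and 9.59. Within each of these 3 genes the arrays lay within 0.4 of each other on the log2 scale. Kit and Ly6a, which encode c-Kit and the Sca-1 antigen, are not named for any probe by the annotation used here, so these parts of the gate could not be checked. Of the 6 GMP markers, Mpo, Elane, Prtn3 and Ctsg were bright, Cd34 was moderate and Kit was not measured.

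Antigens of mature lineages were taken from those commonly used for depletion, since the labels do not list the antibodies used. Of 9 with a probe, 4 (44.4%) were not detected, near the 47.3% of all genes. These were Cd3e, Cd4, Cd8a and Itgam, at 4.43 to 4.92, and Cd5, Il7r and Klrb1c were partly detected. Ly6c1, of the Ly6C surface proteins of monocytes and granulocytes, was bright at 13.98, 14.46, 14.34 and 13.95. Its gene has a close paralog, Ly6c2, with no named probe here, and which of the pair gave the signal is uncertain. Ptprc, the leukocyte antigen CD45 whose B220 form marks B cells, was dim at 5.81 ± 0.20 (SD, n = 4). One of its 2 probes was detected.

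Among the lists of lineage programs, the primary granule list had the highest share detected. Of 28 genes measured, 26 (92.9%) were detected, against 39.5% of all genes, with 15 bright, 9 moderate and 2 dim. The median detected member stood at the 93.8th percentile of detected genes. This list was chosen with earlier results of these data known, and it also holds eosinophil granule genes such as Prg2, Prg3 and Epx. Other members, such as Plac8, Ms4a3, Hdc and Gstm1, do not encode primary granule proteins, so the shares given are those of a mixed list. Elane read 14.82, 14.59, 14.61 and 14.70 on controls 1 to 4. Mpo read 14.38, 14.78, 14.80 and 14.54, and all 3 of its probes were detected. Prtn3 read 14.55, 14.46, 14.56 and 14.49. No array was the lowest for all of these genes. Ctsg read 14.52, 14.41, 14.57 and 14.46. Plac8, a cysteine-rich protein of myeloid cells, read 14.41, 14.56, 14.54 and 14.44, and Ms4a3, a membrane protein known as a marker of GMP and their progeny, 14.15, 13.99, 14.21 and 14.05. The SD was 0.20 for Mpo, 0.11 for Elane and 0.05 to 0.07 for Prtn3, Ctsg and Plac8, against a median of 0.16 over all detected genes and 0.12 over bright genes.

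Further members of the primary granule list filled the bright and moderate bands. The granule tetraspanin gene Cd63 and the lysozyme gene Lyz1 had means of 13.82 and 13.37, and Slpi, an inhibitor of neutrophil elastase, 13.30. For Lyz1, 1 of its 3 probes was detected, and whether that probe tells it from the other lysozyme gene, Lyz2, was not tested. Srgn, the proteoglycan that packs granule proteins, averaged 12.85 ± 0.12 (SD, n = 4). Ctsc, the protease that activates the granule serine proteases, was moderate at 11.18 ± 0.08, as was Serpinb1a, an inhibitor of those proteases, at 10.55 ± 0.14. The endoplasmic chaperone gene Calr was less even, with 8.57 on control 1 against 9.35, 9.73 and 9.51 on the others. Igsf6 and Fcna were dim, and Ermap and Clec12a were partly detected.

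The list of later granule genes spread over all bands. Its bright members were S100a8, S100a9, Cyba and the receptor gene Ltb4r1, and none of the specific granule genes named below was bright. Of 26 secondary and tertiary granule genes measured, 11 (42.3%) were detected, close to the 39.5% of all genes, with 4 bright, 5 moderate and 2 dim. Another 6 were partly detected and 9 were not detected. The calprotectin subunit S100a8 read 14.58, 14.42, 14.68 and 14.56, and its partner S100a9 read 13.34, 13.93, 13.33 and 13.64. Cyba, the p22 subunit of the phagocyte oxidase, averaged 12.85, while the probe of Cybb, its partner subunit, was not detected.

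Among specific granule genes of this list, Camp, the cathelicidin precursor, was moderate and uneven, at 10.01, 11.40, 10.16 and 10.49. Lcn2, lipocalin 2, read 9.65, 9.62, 9.65 and 9.13. Ltf (lactoferrin) and Ngp passed the detection threshold on control 2 alone, at 6.41 and 6.76 there. Chil3, a chitinase-like protein of myeloid cells, was also highest on control 2, at 9.77 against 8.31, 8.63 and 8.54 on controls 1, 3 and 4. Mmp8, the gelatinase gene Mmp9, Padi4, Olfm4 and the stefins Stfa1, Stfa2 and Stfa3 were not detected.

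**Figure D2:**
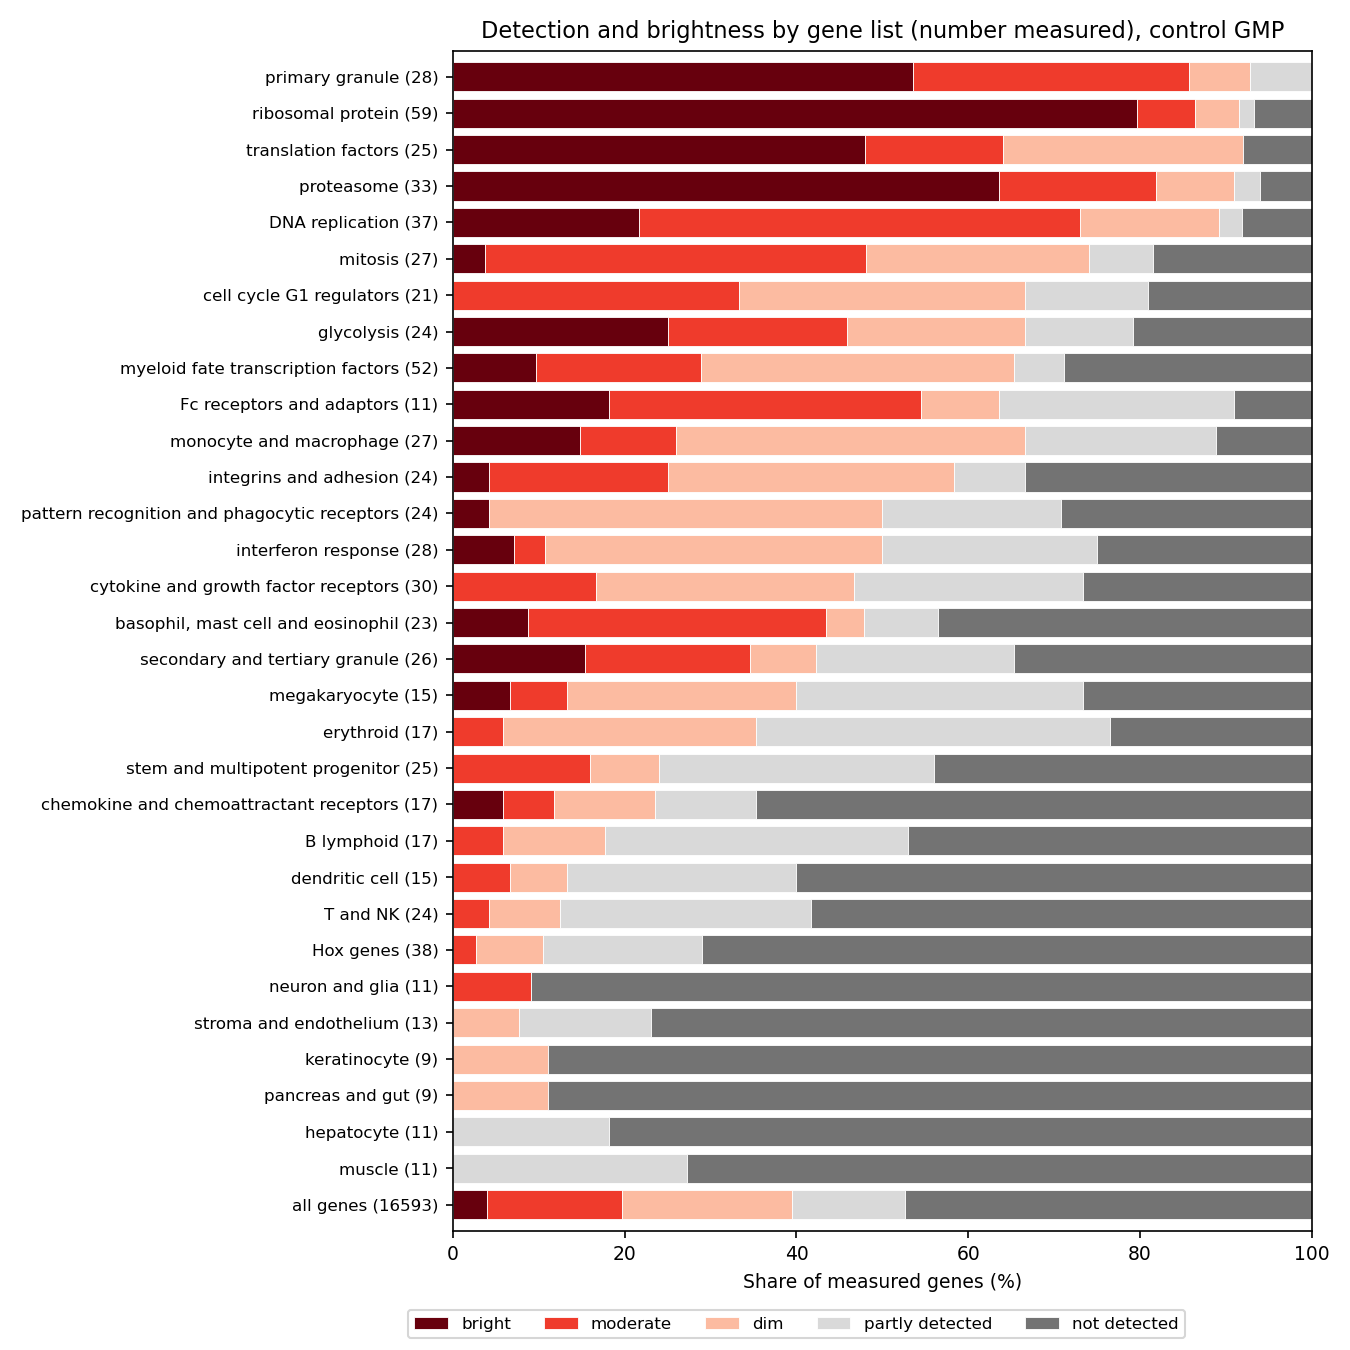
Share of the measured genes of the gene lists shown (horizontal axis, percent, with the number measured in parentheses) that were bright, moderate, dim, partly detected or not detected on the 4 control arrays, with all 16593 genes as the lowest bar. Among the lists shown, primary granule, ribosomal protein, translation factor and proteasome genes had the highest shares detected, 90.9% to 92.9%, and the T and NK, Hox and non-blood tissue lists held mostly undetected genes.

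Transcription factors of myeloid fate reached the bright band in 5 of 52 cases. Of these 52 genes 34 (65.4%) were detected, against 39.5% of all genes, with 10 moderate and 19 dim. Lmo2, a bridging protein of haematopoietic factor complexes, read 13.04, 12.95, 13.29 and 13.16. Cebpe, the C/EBP factor required for secondary granule genes, read 11.94, 11.99, 12.05 and 11.90, and Cebpb, known from emergency granulopoiesis, 12.09, 12.11, 12.16 and 11.91. Nfe2 and Cbfb, the partner of the RUNX factors, were bright as well, at 12.33 and 11.89.

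Factors that set the granulocyte and the monocyte fate were both detected. Gfi1 read 11.62, 11.68, 11.73 and 11.96, just under the bright band. Irf8 read 10.99, 11.15, 11.05 and 10.82. Neither gene varied by more than 0.4 between arrays. Spi1, which encodes PU.1, was dim at 8.84 ± 0.17, and so were Cebpa at 6.76 ± 0.13, Runx1 at 7.13 ± 0.16, Myb at 7.84 ± 0.28 and Myc at 5.99 ± 0.22 (SD, n = 4 each). Each of these 5 was measured by 1 detected probe. Gata1, the erythroid and megakaryocyte factor, Pax5 of B cells, Bcl11b and Gata3 of T cells, Batf3 and Zbtb46 of dendritic cells, and Irf4, Runx3, Egr2 and Erg were not detected.

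Of 30 cytokine and growth factor receptor genes measured, 14 (46.7%) were detected, near the 39.5% of all genes, with 0 bright, 5 moderate and 9 dim. Of the others, 8 were partly detected and 8 were not detected. Ifngr1, which binds interferon gamma, read 10.66, 10.77, 11.06 and 10.84. Csf2ra, the ligand-binding chain of the GM-CSF receptor, read 10.81, 10.87, 10.85 and 10.46, with control 4 the lowest. Csf3r, the G-CSF receptor, read 9.30, 9.30, 9.22 and 9.42, with 2 of its 5 probes detected. Receptor chains for both GM-CSF and G-CSF were thus detected on every array.

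Il3ra, the ligand-binding chain of the interleukin-3 receptor, read 9.27, 9.16, 9.37 and 8.70. Tgfbr1, a TGF-beta receptor kinase, averaged 9.89 ± 0.07 (SD, n = 4), and Tgfbr2 was dim at 8.37. The signalling chain shared by the GM-CSF and interleukin-3 receptors, Csf2rb, did not pass a detection p of 0.01 on any array with any of its 3 probes, and its paralog Csf2rb2 passed on 2. Epor and Il7r passed on 1 array each. Flt3, Il5ra, Il18r1, Il13ra1, Insr, Ifnar1, Lifr and Tnfrsf11a were not detected. Csf1r, the receptor for M-CSF, has no probe named by the annotation used here.

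Chemokine and chemoattractant receptors were largely at background, with 4 of 17 (23.5%) detected and 11 (64.7%) not detected, against 47.3% of all genes. Ltb4r1, the high-affinity receptor for the neutrophil attractant leukotriene B4, was bright at 12.24, 12.46, 12.32 and 12.11. Cxcr4, the bone marrow retention receptor, was moderate at 10.02, 10.22, 10.25 and 9.96. P2ry14, a receptor for UDP-glucose, and Cx3cr1, the fractalkine receptor of monocytes, were dim at 8.14 ± 0.27 and 7.34 ± 0.30 (SD, n = 4). Ccr1, Ccr2, Ccr3, Cxcr3 and the complement receptors C5ar1 and C3ar1 were among those not detected, and Cxcr2 was partly detected.

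**Figure D3:**
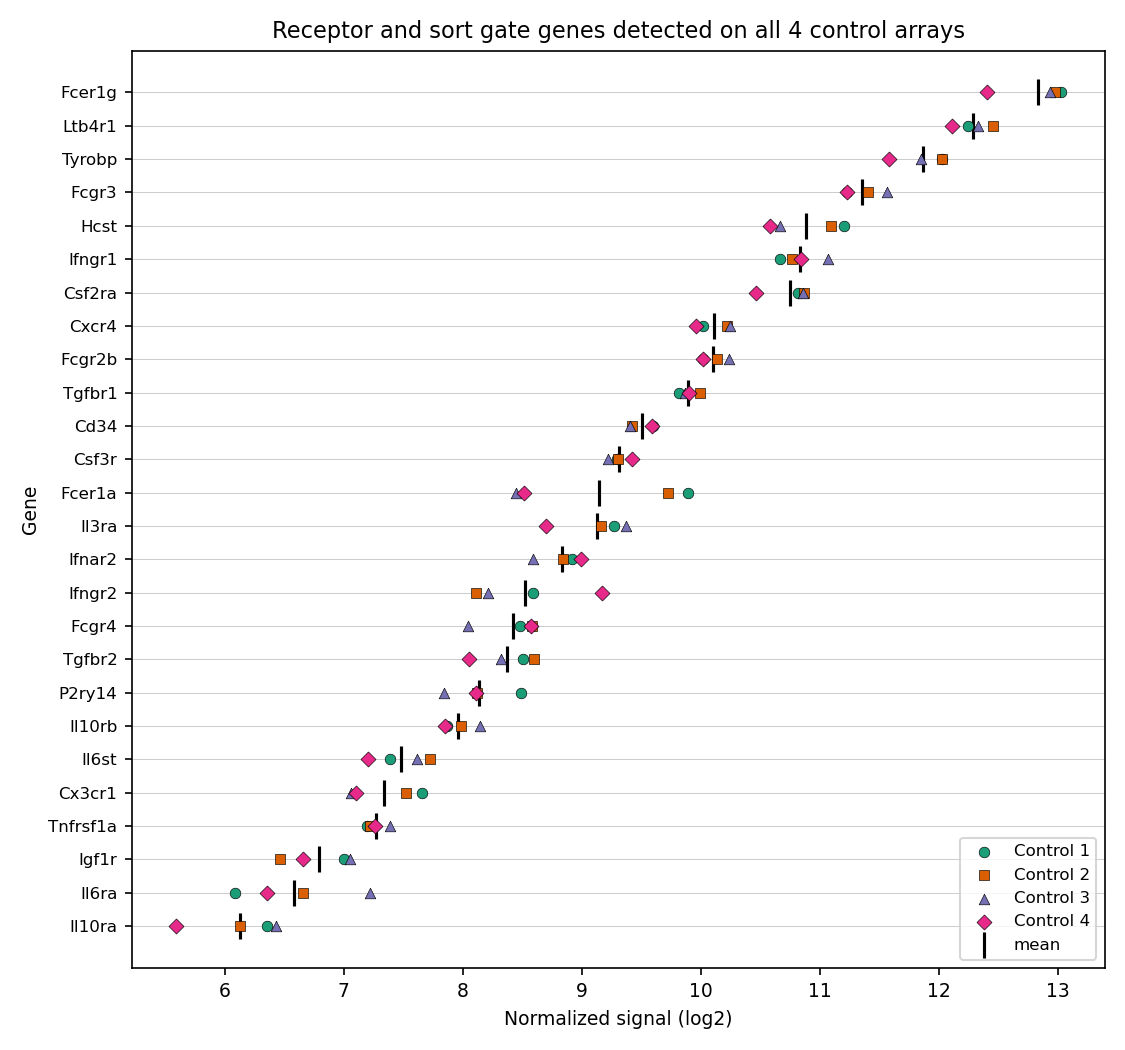
Normalized log2 signal (horizontal axis) of the detected cytokine, chemokine and Fc receptor, adaptor and sort gate genes (rows), with 1 marker for each control array and a bar at the mean. Fcer1g, Ltb4r1 and Tyrobp led the order, and Fcer1a split into controls 1 and 2 above controls 3 and 4.

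Of 11 Fc receptor and adaptor genes measured, 7 (63.6%) were detected, against 39.5% of all genes, with 2 bright and 4 moderate. Fcer1g, the common gamma chain that Fc receptors need for signalling, read 13.02, 12.97, 12.93 and 12.40, with control 4 apart. Tyrobp, the DAP12 adaptor, read 12.02, 12.02, 11.84 and 11.58, and Hcst, the DAP10 adaptor, 11.20, 11.09, 10.67 and 10.58. Control 4 gave the lowest signal for all 3 adaptors. Fcgr1, the high-affinity IgG receptor of monocytes, was not detected, and Fcgr4 was dim at 8.42.

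Pattern recognition and phagocytic receptors were detected for 12 of 24 genes (50%), against 39.5% of all genes, and 11 of these were dim. Trem3, a DAP12-coupled receptor of myeloid cells, was the bright one at 12.99, 12.91, 12.92 and 12.98. The C-type lectins Clec4d and Clec7a averaged 8.78 ± 0.34 and 8.34 ± 0.45 (SD, n = 4). Tlr2, which senses bacterial lipoproteins, averaged 8.05, and the parts of the lipopolysaccharide receptor, Tlr4, Ly96 and Cd14, averaged 6.96, 7.75 and 7.09. Tlr3, Tlr8, Msr1, Clec4a2, Clec4n, Cd36 and Mertk were not detected.

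Adhesion genes were detected in 14 of 24 cases (58.3%), against 39.5% of all genes. Cd47, the surface signal that inhibits phagocytosis, was bright at 11.97 ± 0.06 (SD, n = 4). Selplg, the P-selectin ligand PSGL-1, was moderate at 11.58, 12.07, 11.99 and 11.53, and Icam2 and Vcam1 averaged 11.12 and 9.80. Cd44, the hyaluronan receptor, averaged 10.34 from 1 of its 6 probes, the only one detected. The integrin genes Itgam (CD11b), Itgax (CD11c), Itga4, Itga2 and Itgb3 were not detected, and Itga5, Itga6, Itga2b, Itgb1 and Itgb7 were dim.

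Monocyte genes were detected more often than genes of any lymphoid or dendritic list. Of 27 measured, 18 (66.7%) were detected, against 39.5% of all genes. Most of these were dim, 11 in number, with 3 moderate and with Ly6c1 and 3 others bright. The median detected member stood at the 31.4th percentile of detected genes. Ccl9, a chemokine of myeloid cells, read 13.30, 12.97, 13.02 and 12.51. Ctsb, the lysosomal protease cathepsin B, averaged 12.64 ± 0.12 and F13a1, coagulation factor XIII of monocytes, 12.52 ± 0.15 (SD, n = 4). Lyz2 and Lgals3 were moderate at 11.01 and 10.15, and Adgre1, the F4/80 antigen of macrophages, and Klf4 were dim at 7.63 and 7.79. Ccr2, Fcgr1 and Msr1 were not detected. In sorted cell samples of this kind, fewer cells of a type and less RNA per cell cannot be told apart.

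Genes of basophils, mast cells and eosinophils were detected in part. Of 23 measured, 11 (47.8%) were detected, near the 39.5% of all genes, with 2 bright and 8 moderate. Prg2, the eosinophil major basic protein, read 13.51, 14.17, 13.35 and 12.94. Hdc, which makes histamine, read 13.29, 13.30, 13.31 and 13.39. These bright genes, with Prg3 and Epx, are also members of the primary granule list. The mast cell carboxypeptidase gene Cpa3 read 11.42, 11.23, 10.98 and 10.91, and the basophil protease gene Prss34 10.04, 10.86, 9.80 and 9.32. Gata2, a factor of stem, mast and basophil cells, averaged 10.02 ± 0.31, and Mcpt8, a basophil protease, 9.51 ± 0.25 (SD, n = 4). The proteases of mature mast cells, Mcpt1, Mcpt2, Mcpt4, Tpsab1 and Tpsb2, were not detected.

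The eosinophil granule genes moved together over the arrays. Prg2, Prg3 and Epx were each highest on control 2, then control 1, control 3 and control 4, with Prg3 at 9.84, 10.42, 9.61 and 9.14 and Epx at 9.11, 9.64, 8.86 and 8.43 on controls 1 to 4. Ear6, an eosinophil ribonuclease with several close paralogs, read 8.91, 10.04, 8.63 and 8.60. Fcer1a, the IgE-binding chain of the mast cell and basophil receptor, followed another order, at 9.89, 9.73, 8.45 and 8.52. Over the 11 detected members, the median deviation from the gene's own mean was 0.10, 0.58, -0.19 and -0.44 on controls 1 to 4, and their linear signals summed to 30778, 38851, 27034 and 24467. What part a share of such cells played was not tested.

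Of 17 erythroid genes, 6 (35.3%) were detected, near the 39.5% of all genes, and 10 passed at a detection p under 0.05. Tfrc, the transferrin receptor of dividing cells and erythroblasts, was moderate at 10.37 ± 0.12. The globin gene Hba-a1 read 8.23, 9.34, 8.81 and 8.35 and Klf1, the erythroid factor, 7.34, 8.21, 8.14 and 7.99. Control 1 was the lowest for both. Alas2, Epb42 and Rhd were not detected. Of 15 megakaryocyte genes, 6 (40%) were detected, near the share of all genes, with Nfe2, also a myeloid factor, bright. Pf4, platelet factor 4, was moderate at 9.42, 9.94, 8.83 and 9.69, and Itga2b, Gp9, Vwf and Treml1 were dim.

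Lymphoid and dendritic genes were seldom detected, against 39.5% of all genes. In the B lymphoid list 3 of 17 genes (17.6%) passed, in the T and NK list 3 of 24 (12.5%) and in the dendritic list 2 of 15 (13.3%). Cd79b, a chain of the B cell receptor complex, was the most visible at 10.66, 10.77, 10.93 and 10.49, and both of its probes were detected. Without control 1, 5 B lymphoid genes passed. The partner of Cd79b, Cd79a, was partly detected, and Pax5, Rag2, Dntt and Ms4a1 were not detected. Cd27, a TNF receptor family member that is also in the stem and progenitor list, was moderate at 11.22 ± 0.14 (SD, n = 4). Prf1, which encodes perforin, read 8.99, 8.79, 8.16 and 9.67, while the T cell genes Cd3e, Cd3d, Cd3g, Cd4, Cd8a and Zap70 were not detected. Bst2 and H2-Ab1, at 10.27 and 8.77, were the detected members of the dendritic list, and Itgax, Flt3, Xcr1, Clec9a and Ciita were not detected.

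Stem cell and Hox genes gave few signals. Of 25 stem and multipotent progenitor genes, 6 (24%) were detected, against 39.5% of all genes. These were Cd27, Gata2, Txnip, Cd34, Meis1 and Hoxb4. Meis1, a Hox cofactor, was dim at 9.03, 8.70, 8.22 and 8.88. Slamf1, Hlf, Esam, Fgd5 and Robo4 were not detected, and Procr and Mecom were partly detected without passing 0.01 on any array. Of 38 Hox genes, 4 (10.5%) were detected and 27 (71.1%) were not, against 39.5% and 47.3% of all genes. Hoxa7 was moderate at 9.59, 9.03, 9.14 and 8.81, and Hoxb4, Hoxa5 and Hoxa13 were dim. Hoxa9, known from myeloid progenitors, passed 0.01 on 0 arrays with its 3 probes.

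Genes of DNA replication were detected for 33 of 37 members (89.2%), against 39.5% of all genes, with 8 bright and 19 moderate. Mcm5, of the replicative helicase, read 12.92, 13.14, 13.23 and 13.08, and Rpa1, the large subunit of replication protein A, 12.65, 12.61, 12.78 and 12.73. Mcm4, Mcm6, Pold1 and Rfc2 had means of 12.18 to 12.60. Orc1, Pola1 and Pole2 were not detected. Mitosis genes were detected for 20 of 27 members (74.1%), against 39.5% of all genes, with 1 bright, 12 moderate and 7 dim. Another 5 were not detected, among them Bub1, Ccnb2, Cenpe and Ect2. The detected members were led by the centromeric histone Cenpa at 13.02 ± 0.12, the anaphase activator Cdc20 at 11.60 ± 0.20 and Birc5, survivin, at 11.27 ± 0.14 (SD, n = 4 each). Cdc20 and Birc5 were detected with all of their probes.

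Among G1 regulators 14 of 21 (66.7%) were detected, against 39.5% of all genes, none bright. Ccnd3, cyclin D3, read 11.63, 11.89, 11.93 and 11.75, and Ccnd2, cyclin D2, read 11.30, 10.67, 10.63 and 11.16. Cdk2 averaged 11.44 ± 0.11 (SD, n = 4). The inhibitor genes Cdkn1b, Cdkn2a and Cdkn2b were not detected.

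Ribosomal protein genes were detected for 54 of 59 members (91.5%), against 39.5% of all genes, and 47 were bright. The detected members had a median SD of 0.09 over the arrays. Translation factors passed in 23 of 25 cases (92%), 12 bright, and proteasome subunits in 30 of 33 (90.9%), 21 bright. Of all genes, 39.5% were detected and 3.95% were bright. The 2 remaining translation factors, Eif3e and Eif3m, were not detected. Psma2, Psma3, Psma5 and Psmb4, subunits of the catalytic core, had means of 13.66 to 14.13. A missing signal did not mean a missing transcript even here, since the probes of Rpsa, Rplp2, Rps23 and Rpl17 and of the core proteasome subunits Psma1 and Psma6, which all cells need, were not detected. Eef1a1, an abundant elongation factor in most cells, was dim at 7.45 ± 0.03. Hence no gene given above as not detected is called absent from the cells.

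Glycolytic genes were detected for 16 of 24 members (66.7%), against 39.5% of all genes. Gapdh read 14.68, 14.57, 14.71 and 14.72, and Tpi1, Ldha, Pkm and Aldoa averaged 13.96, 13.89, 13.14 and 12.97. Hk3, a hexokinase isoform of myeloid cells, was bright at 12.70 ± 0.16 (SD, n = 4), Hk2 was moderate at 11.31 and Hk1 dim at 6.10. Pklr, Eno2 and Aldoc, isoforms of liver and nerve tissue among others, were not detected.

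Interferon response genes were detected for 14 of 28 members (50%), against 39.5% of all genes, and 11 of these were dim. The membrane restriction factors Ifitm2 and Ifitm3 were bright at 13.09 ± 0.09 and 12.01 ± 0.13 (SD, n = 4). Isg15 was dim at 7.40, and Ifit1, Mx1, Mx2, Oas3 and Cxcl10 were not detected.

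Genes of the single-stranded DNA binding SOSS complex and the Integrator complex were detected for 12 of 15 members (80%), against 39.5% of all genes. Of these members, 8 were moderate and 4 dim. Nabp2, which encodes Ssb1, read 9.21, 9.34, 8.38 and 9.34, with control 3 the lowest. The scaffold gene Ints3 read 10.35, 10.32, 10.38 and 10.37, and Inip, the small subunit that completes SOSS, averaged 7.99 ± 0.17 (SD, n = 4). Nabp1, which encodes Ssb2, was not detected with its single probe, at 4.62 ± 0.13.

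As checks of label and tissue, Xist, the RNA of the inactive X chromosome, read 9.75, 9.61, 9.66 and 9.97. The Y-linked genes Eif2s3y, Kdm5d, Zfy1, Zfy2 and Sry were not detected, and Uty was partly detected but passed 0.01 on 0 arrays. Lists of 6 tissues outside the blood held 4 detected members of 64 measured, against 39.5% of all genes detected. Each list had at most 1, Mbp at 9.16 from 1 of its 3 probes, Cela1 at 8.13, Krt10 at 7.52 and Pecam1 at 7.82. No hepatocyte or muscle gene was detected on all 4 arrays, and without control 4 there was 1 muscle gene.

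Promoter composition differed between the bands over all genes with a RefSeq window. The median CpG observed-over-expected ratio was 0.80 for bright, 0.79 for moderate and 0.76 for dim genes, 0.59 for partly detected genes and 0.35 for genes not detected. Windows of detected ribosomal protein genes had a median of 0.88. Detected members of the primary granule list, which also holds genes of other proteins, had a median of 0.25, with 24 of 26 matched to 29 windows. The 10 secondary and tertiary granule windows had a median of 0.16. Both granule lists thus stood below the median of the undetected genes, although most of their detected members were bright or moderate.

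The 4 arrays were alike over genes. Pairwise correlations over the 6551 detected genes were 0.986 to 0.992, across genes, which are not independent replicates. The median absolute log2 difference between 2 arrays was 0.15 to 0.21, and no pair of arrays held identical values. The SD of a gene over the arrays had a median of 0.16 with quartiles of 0.11 and 0.23, and 70 genes (1.07%) exceeded 0.5.

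**Figure D4:**
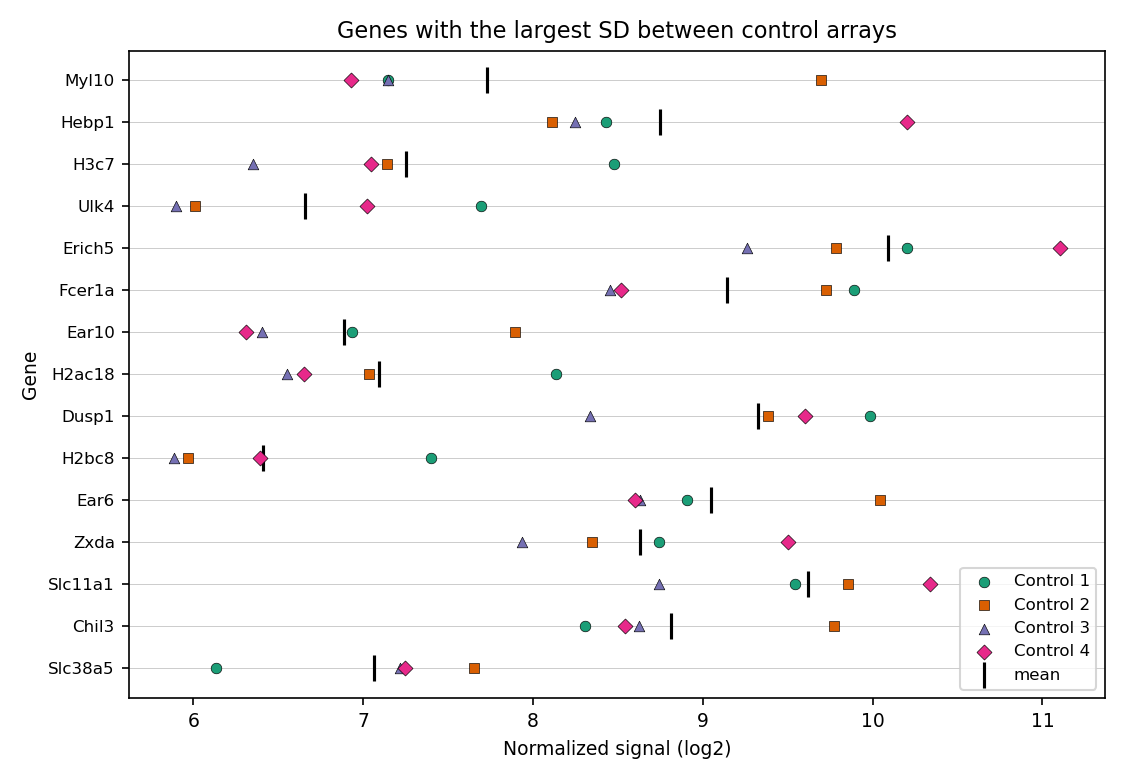
Normalized log2 signal on each control array (horizontal axis, 1 marker per array, bar at the mean) of the 15 detected genes with the largest SD. Myl10 on control 2 and Hebp1 on control 4 stood alone, and control 3 was the lowest array for 9 of the 15 genes.

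The largest SD belonged to Myl10, a myosin light chain gene, at 7.14, 9.70, 7.15 and 6.93. Hebp1, a haem-binding protein, read 8.43, 8.11, 8.25 and 10.20. In each of these a single array set the spread. Dusp1, an immediate-early phosphatase, read 9.98, 9.38, 8.33 and 9.60, and Slc11a1, the phagosomal metal transporter Nramp1, read 9.54, 9.85, 8.74 and 10.34, both lowest on control 3. The histone genes H3c7, H2ac18 and H2bc8 were highest on control 1 and lowest on control 3. Fcer1a, Ear6, Ear10 and Chil3 of the granulocyte lineages were also among the 15, with Ulk4, Erich5, Zxda and Slc38a5. Of the 70 genes with an SD over 0.5, 42 (60%) were lowest on control 3, as were 32.1% of all detected genes. What sets control 3 apart in these genes was not tested.

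**Figure D5:**
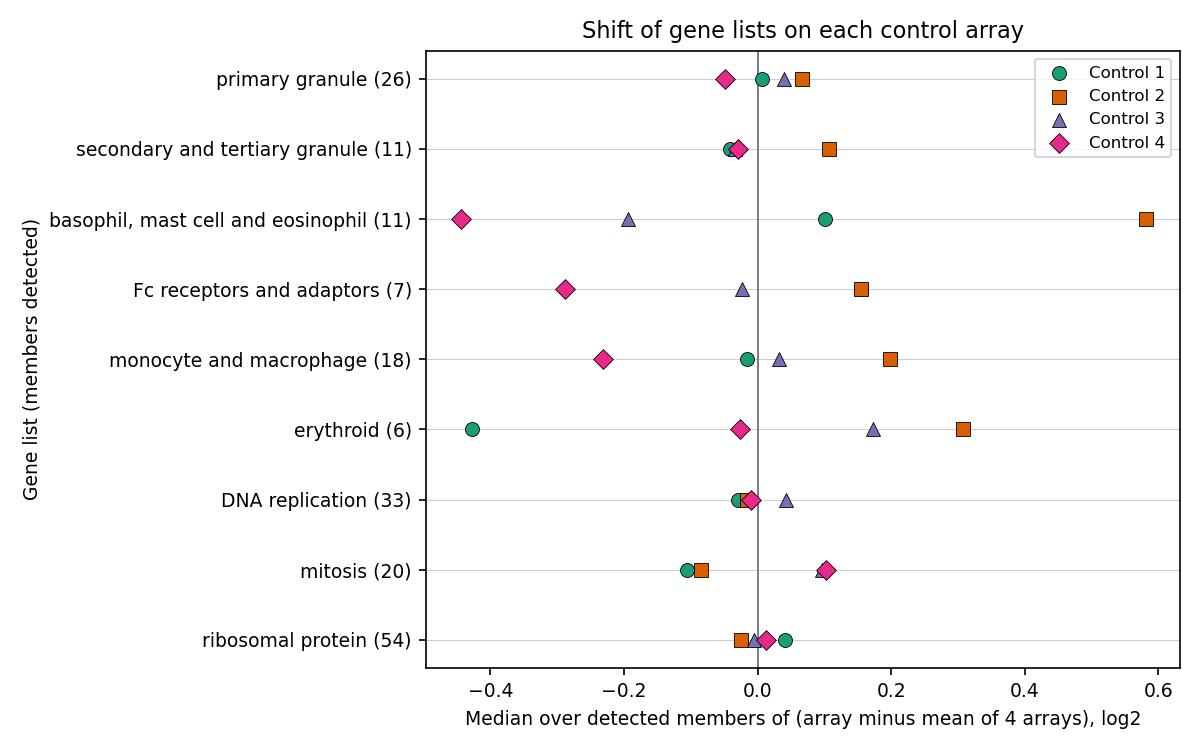
Median deviation of the detected members of 9 gene lists from their own 4-array means (horizontal axis, log2), with 1 marker per control array. The basophil, mast cell and eosinophil list spread from -0.44 on control 4 to 0.58 on control 2, while the ribosomal protein and DNA replication lists stayed within 0.05 of 0.

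Lists differed in how far they moved between arrays. They also differ in size and brightness, and the median SD was 0.12 for bright, 0.14 for moderate and 0.19 for dim genes. What part this had in the shifts was not tested. The primary granule list had median deviations of 0.01, 0.07, 0.04 and -0.05 on controls 1 to 4. The erythroid list had -0.43, 0.31, 0.17 and -0.03, and the monocyte list -0.02, 0.20, 0.03 and -0.23. Fc receptor genes had 0.16, 0.16, -0.02 and -0.29, the lowest on control 4, as for monocyte genes. Mitosis genes had -0.11, -0.08, 0.10 and 0.10, higher on controls 3 and 4.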

How the data were processed

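RNA of sorted GMP was measured on 4 control arrays. RNA was purified with the RNeasy mini kit, DNase-treated and converted to biotinylated cRNA with the TotalPrep kit, per the labels' protocols. The submitters' processing notes name GenomeStudio. Further steps before deposit are not stated in any source used here. Each probe of the deposited table has a linear bead intensity on each array, without normalization as its values show, and, per the file headers, a detection p-value. The steps of these p-values, 0.00125, limit how finely detection can be graded. The authors' processed table of log2 values, of which the columns of the DKO arrays (4) were not used, served as an alternative for the spread only. Another 10 unnamed columns are empty.

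For the 4 control arrays, neqc (limma 3.58.1, R 4.3.3) corrected and normalized the intensities (normexp with controls inferred from the detection p-values, offset 16, quantile normalization). Probe names came from the platform annotation, and 23962 probes matched RefSeq genes by gene ID, with 0 symbols changed. A gene is represented by its brightest probe among those detected on all 4 arrays. Groups were not compared, since there is 1 group, and the only test applied was Dixon's, for single arrays that stand apart. The detection calls and the order of genes by signal were tested on simulated arrays, in which neqc was not run. Alternatives were other detection thresholds, no background correction, normexp at an offset of 50, arrays aligned by medians, normalization over all 8 arrays, the mean over a gene's probes, and leaving out each array.

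The members and the 36 gene lists (801 genes, 111 memberships without a named probe) were chosen with earlier results of these data known. Named are the sort gate, marker and SOSS genes, the 30 brightest genes, from each list the 6 brightest detected members and up to 4 not detected, all members of lists of 12 or fewer, the 15 genes with the largest SD and the 8 with the widest gap between probes. Other list members named for a known role were chosen after their values were seen.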

Additional observations from a re-analysis of the deposited data

Results flagged for a closer look

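Of 185 named genes detected on all 4 arrays, 10 had 1 array whose gap to the nearest other exceeded Dixon's critical share of the range over 4 samples. Chance alone flags about 1 in 20 such genes, so this number is near what chance gives. Control 4 stood apart in 5 of the 10 and control 3 in 4.

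On control 4, Cdk2 was high at 11.61 against 11.36 to 11.40 on the others, and Hebp1 was high at 10.20 against 8.11 to 8.43. Csf2ra was low there at 10.46 against 10.81 to 10.87, Cyba at 12.63 against 12.90 to 12.96 and Fcer1g at 12.40 against 12.93 to 13.02. On control 3, Ints11 was high at 9.63 against 9.26 to 9.30 and Rpl31 at 14.65 against 14.60. Mcm4 was low there at 12.50 against 12.62 to 12.65, and Nabp2 at 8.38 against 9.21 to 9.34. On control 2, Myl10 was high at 9.70 against 6.93 to 7.15. The gaps of Rpl31 and Mcm4 were 0.05 and 0.12 on the log2 scale.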

How the results depend on the processing

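Counts of detected list members stayed within 1.5 times their main value in 241 of 252 recomputations. At a detection p under 0.001, 1 lineage antigen was detected. At a detection p under 0.05, 4 dendritic, 10 erythroid, 5 B lymphoid, 10 stem cell, 2 hepatocyte and 1 muscle gene were detected. Requiring 3 of 4 arrays gave 5 B lymphoid genes and 1 muscle gene. Leaving out each array in turn gave 3 to 5 B lymphoid genes and 0 to 1 muscle genes, with the highest value for B lymphoid genes without control 1 and for muscle genes without control 4. The median SD between arrays, 0.16, was 0.116 without background correction, 0.136 with normexp at an offset of 50, 0.219 with arrays aligned by medians, 0.108 in the authors' processed table and 0.136 to 0.166 leaving out each array, lowest without control 3. The median gap between probes of a gene, 1.36, was 1.02 without background correction and 1.51 at a detection p under 0.05. What caused these shifts was not tested. The number of probes detected on all 4 control arrays became 9088 to 9247 when an array was left out, and the number of genes detected on all 4 control arrays 6565 to 6653. All 185 named detected genes kept their band under the other background corrections and normalizations and 179 to 184 when an array was left out, but 151 with the mean over a gene's probes, where Cd44 moved to the 3.22nd percentile from the 73.1st. No paired analysis was possible because 1 group was described and no groups were compared. Signals near background bound what these arrays can show.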
